A study of Mus musculus with 17 samples.

Results

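Complement genes were examined in poly(A) RNA-seq of mouse dorsal hippocampus. The 9 genes were taken by name from the 24498 gene symbols of the deposited count table: C1qa, C1qb and C1qc (the chains of C1q), C3, C4b, the anaphylatoxin receptors C3ar1 and C5ar1, and Itgam and Itgb2 (the chains of complement receptor 3). All 9 passed the filter on low counts in both fits used here. The 17 libraries fell into 6 groups by sex, genotype and injection. Male mice gave 3 libraries each of WT PBS, WT Tau, KO PBS and KO Tau, and female mice gave 2 libraries of WT Tau and 3 of KO Tau, with no female PBS group. The WT and KO mice came from homozygous crosses, set up with the offspring of heterozygous breeders, and differed in Acss2, the gene of an acetyl-CoA synthetase that uses acetate. Aged 6 months, they received either PBS or AD-tau, pathological tau purified from post-mortem brains of people with Alzheimer's disease, in the right dorsal hippocampus, and tissue was taken 6 months later. The study describes the knockout as constitutive, and the injection was on one side only. The study's methods describe bulk RNA-seq for male mice, so that the female libraries are known from their labels alone.

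The complement system is a chain of plasma and locally made proteins that marks particles for removal. In the classical pathway, C1q binds a surface and its partner proteases cleave C4 and C2, which together cleave C3. The fragments C3a and C5a signal through C3ar1 and C5ar1, and surface-bound C3 fragments are read by complement receptor 3 on microglia and other myeloid cells. In brain, C1q is made mainly by microglia and C3 and C4 by glia, and these proteins are known for their part in microglial removal of synapses.

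Library totals lay between 14183131 and 22463635 counts, so that 3 counts, the limit allowed by a count of 0, were between 0.134 and 0.212 CPM (read counts scaled to a library total of 1000000). Acss2 itself followed the labels: it read between 44.0 and 54.6 CPM in the WT libraries and between 3.07 and 8.81 CPM in the KO libraries. Of the 136 pairs of libraries none held identical counts. The labels do not state whether each library is a separate mouse, and p-values measure the spread between these libraries. A library of the male KO Tau group, 713, stood apart in RNA of the choroid plexus, the epithelium lining the ventricles: its 10 markers summed to 4062 CPM, against 25.5 to 586 CPM in the other male libraries. Without it 8 of the 9 genes were called in female against male Tau, as with it, while the calls over all genes there were 1770 without it and 3674 with it. Some of the other results that it changes are given both ways.

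Ordered by level per length, as CPM per kilobase of merged exons, C1qa and C1qb came first in male WT PBS hippocampus, with 43.1 ± 2.67 and 42.8 ± 3.22 (SD, n = 3). Their ranges overlapped. C1qc followed at 20.5 ± 1.75 and C4b at 11.2 ± 2.22. Among the receptors, Itgam had 5.24 ± 0.435 CPM per kilobase, Itgb2 2.40 ± 0.373, C3ar1 0.534 ± 0.166 and C5ar1 0.271 ± 0.0546. C3 was the lowest of the 9 in this group at 0.236 ± 0.0663 and overlapped C5ar1. The recognition chains of the classical pathway were thus far above C3, as RNA per length in the same tissue. In these bulk libraries fewer cells of a type and less RNA per cell cannot be told apart.

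The 3 C1q genes lie side by side on the minus strand of chromosome 4 (GRCm38): C1qb at chr4:136880129-136886187, C1qc at chr4:136889804-136893065 and C1qa at chr4:136895917-136898803, all within 18675 bases. C4b (chr17:34728380-34743882) and C3 (chr17:57203970-57228136) are both on the minus strand of chromosome 17. C3ar1 (chr6:122847138-122856161) and C5ar1 (chr7:16246743-16259540) are also on the minus strand, and Itgam (chr7:128062640-128118491) and Itgb2 (chr10:77530252-77565708) on the plus strand. C4b has a near-identical neighbour, C4a, so that reads matching both may have been left out or given to the wrong gene. Itgam shares 3450 exon bases on the same strand with Gm49368, a gene model that was not in the table. The values of C4b and Itgam carry these uncertainties.

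RefSeq promoter sequence (GRCm38.p6) was at hand for 6 of the 9 genes. The 250 bases before the start site are shown for C1qb, whose RNA differed between the sexes, for C3, which had a larger fold between them than the C1q chains, and for Itgam, which did not pass that test, so that a reader can set them beside each other. Capitals mark GAGGAA, searched on both strands, so that TTCCTC is the same letters read from the opposite strand. These are core letters bound by PU.1, the transcription factor of myeloid cells.
C1qb, chr4:136886201-136886450, minus strand: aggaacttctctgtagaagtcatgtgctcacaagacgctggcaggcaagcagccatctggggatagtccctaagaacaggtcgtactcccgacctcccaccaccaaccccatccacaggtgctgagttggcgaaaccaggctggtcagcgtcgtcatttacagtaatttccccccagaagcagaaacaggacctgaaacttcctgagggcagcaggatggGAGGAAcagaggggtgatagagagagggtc
C3, chr17:57228137-57228386, minus strand: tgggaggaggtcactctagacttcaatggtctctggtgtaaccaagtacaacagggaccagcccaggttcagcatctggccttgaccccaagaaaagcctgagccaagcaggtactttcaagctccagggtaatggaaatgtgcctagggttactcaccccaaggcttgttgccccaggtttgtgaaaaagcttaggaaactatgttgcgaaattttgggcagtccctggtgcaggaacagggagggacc
Itgam, chr7:128062390-128062639, plus strand: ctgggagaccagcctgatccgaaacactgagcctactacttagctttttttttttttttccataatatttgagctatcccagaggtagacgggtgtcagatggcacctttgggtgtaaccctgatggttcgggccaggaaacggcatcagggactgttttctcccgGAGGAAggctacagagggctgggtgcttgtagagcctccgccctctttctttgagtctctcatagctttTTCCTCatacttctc
The letters occurred in 3 of the 6 promoters, C1qb, C1qc and Itgam, and in 23.3% of the 32851 promoter windows of this length. Itgam held them at 84 bases before the start on the given strand and at 15 bases on the opposite one, and C1qb at 30 bases on the given strand. The start used for C1qb lies beyond the gene boundary given above, 136886187. The 30 bases after that start matched no C1qb transcript of the GENCODE annotation, so its distance to the motif is uncertain. A match of 6 letters is a description of the window and does not show a bound site. The STAT pattern TTCNNNGAA, searched alike, was in none of these 6 windows and in 7.02% of all, and TATAAA was found in C3ar1 only and in 12.4% of all. TTCNNNGAA reads the same on both strands, and a match to it can overlap one to GAGGAA.

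The largest contrast for these genes lay between the sexes. Among Tau-injected mice, 8 of the 9 complement genes were higher in female than in male hippocampus, averaged over genotype: C1qa, C1qb, C1qc, C3, C4b, C3ar1, C5ar1 and Itgb2. Itgam, the remaining gene, did not pass the test. Calls are by edgeR's quasi-likelihood test at a false discovery rate (FDR, Benjamini-Hochberg adjusted over all genes) of 0.05. This contrast was wide over the whole table, where 23.8% of 15419 genes were called, 11.4% as higher and 12.4% as lower, so that the 8 of 9 stands beside a background in which about as many genes were lower as higher. The median log2 fold change of the 9 genes was 0.83, and that of all genes tested was -0.01. Sex cannot be told apart from any other difference between the female and male libraries, such as handling or sequencing, and whether females also differ without tau was not measured.

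**Figure D1:**
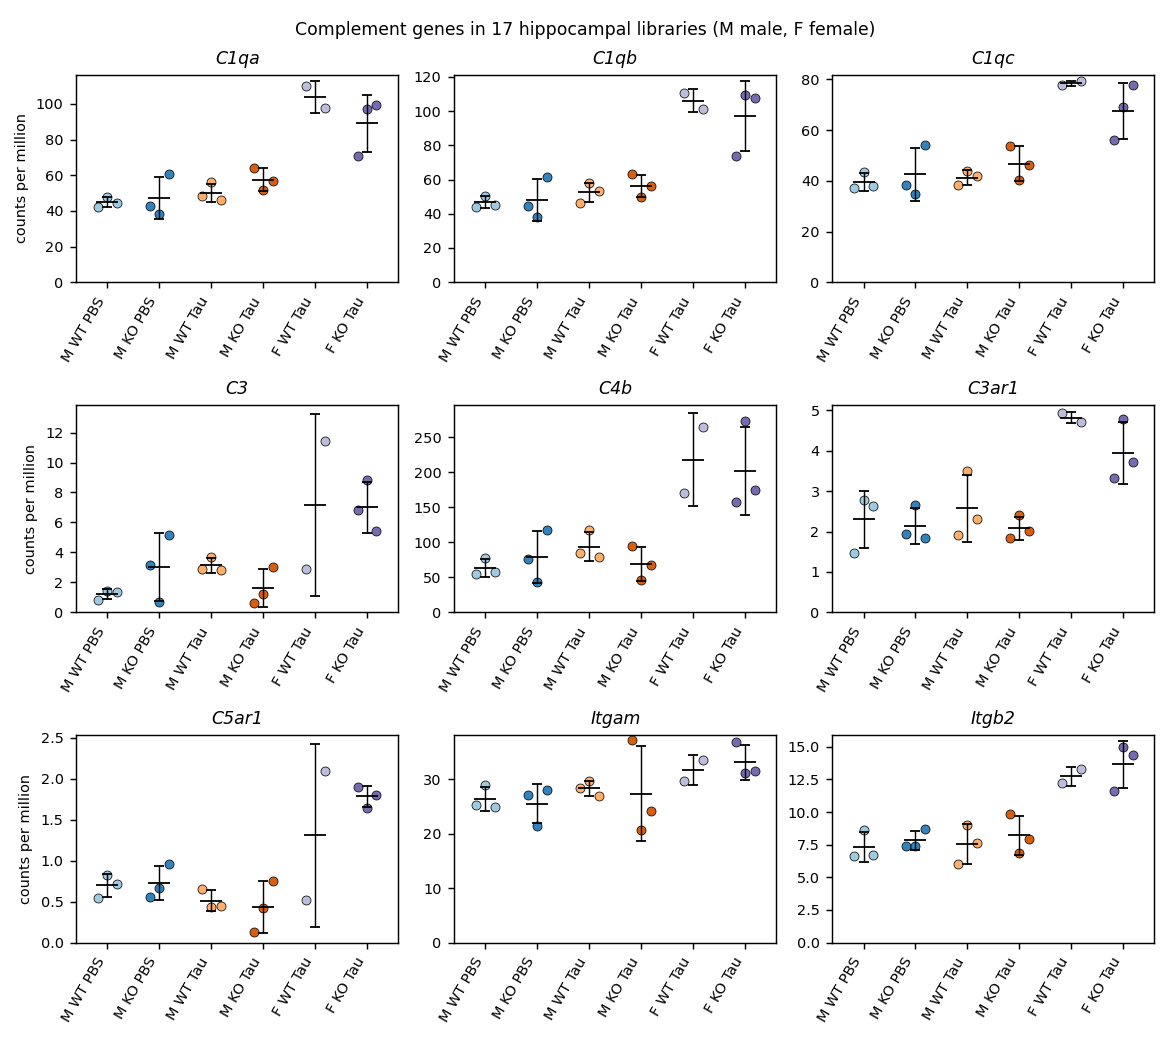
CPM of each complement gene (vertical axes, starting at 0) in every library, by group on the horizontal axes; horizontal strokes and bars are group means ± SD. For C1qa the 5 female libraries sat between 70.6 and 110 CPM, above every male library, whereas for Itgam the female range of 29.7 to 36.8 CPM lay within that of male KO Tau.

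C1q, the recognition molecule of the classical pathway, showed this contrast in each of its chains. C1qa read 110 and 97.5 CPM in the female WT Tau libraries and 70.6, 97.1 and 99.4 CPM in female KO Tau. In males it read 48.6, 55.9 and 46.2 CPM in WT Tau and 64.3, 51.6 and 56.6 CPM in KO Tau. Every female library was above every male one, with a 1.71-fold difference (95% interval 1.46 to 1.99, FDR 0.00247). C1qb read 111 and 101 CPM in female WT Tau, 73.7, 110 and 108 CPM in female KO Tau, 46.4, 57.9 and 53.1 CPM in male WT Tau and 63.0, 49.7 and 56.2 CPM in male KO Tau. The female and male Tau groups again did not overlap, and the fold was 1.78 (1.503 to 2.11, FDR 0.00271). C1qc read 77.9 and 79.3 CPM in female WT Tau, 56.0, 69.1 and 77.8 CPM in female KO Tau, 38.2, 43.9 and 41.7 CPM in male WT Tau and 53.9, 40.2 and 46.2 CPM in male KO Tau. It too was separate between the sexes, by 1.58-fold (1.37 to 1.83, FDR 0.00390). The lowest female library for all 3 chains was KO Tau 314.

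C4b, the component cleaved after C1q has bound, had the highest group mean CPM of the 9 genes in every group. It read 171 and 265 CPM in female WT Tau and 157, 273 and 175 CPM in female KO Tau. In male WT Tau it read 85.3, 118 and 78.5 CPM, and in male KO Tau 94.9, 46.5 and 67.9 CPM. All female libraries were above all male ones, with a fold of 2.48 (1.77 to 3.48, FDR 0.00637). C3, on which all activation routes converge, read 2.89 and 11.4 CPM in female WT Tau and 6.84, 8.82 and 5.41 CPM in female KO Tau, against 2.92, 3.73 and 2.80 CPM in male WT Tau and 0.631, 1.20 and 3.06 CPM in male KO Tau. Here the sexes overlapped through female WT Tau 331, and the 2 female WT libraries lay 3.95-fold apart. The fitted fold was 2.99 (1.62 to 5.50, FDR 0.0199). It rested on female WT Tau 341 and male WT Tau 773: without the first the log2 fold change was 0.90 (FDR 0.107), and without the second it was 1.54 (FDR 0.0547).

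The receptors for the cleaved fragments were low but followed the same direction. C3ar1, the receptor for C3a, read 4.92 and 4.72 CPM in female WT Tau and 3.31, 4.78 and 3.73 CPM in female KO Tau. Male WT Tau had 1.91, 3.51 and 2.31 CPM and male KO Tau 1.83, 2.40 and 2.02 CPM, so that male WT Tau 772 alone reached into the female range. The fold was 1.79 (1.34 to 2.40, FDR 0.0137), and the FDR was 0.0577 without female WT Tau 331. C5ar1, the receptor for C5a, had 9 and 47 counts in female WT Tau and 27, 24 and 29 in female KO Tau, against 11, 8 and 9 counts in male WT Tau and 2, 8 and 16 in male KO Tau. As CPM, 4 of the 5 female libraries lay between 1.64 and 2.09 and the other, WT Tau 331, at 0.521, within the male Tau range of 0.126 to 0.753. The fold of 3.07 (1.62 to 5.81, FDR 0.0212) was lost as a call without female WT Tau 341 (log2 fold change 0.92, FDR 0.143) or without male WT Tau 773 (1.57, FDR 0.0577).

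The chains of complement receptor 3 parted. Itgb2 (CD18), the beta chain that also pairs with other alpha chains of leukocyte integrins, read 12.2 and 13.3 CPM in female WT Tau and 11.6, 14.97 and 14.4 CPM in female KO Tau, against 6.02, 9.04 and 7.63 CPM in male WT Tau and 9.84, 6.88 and 7.90 CPM in male KO Tau. The sexes did not overlap, and the fold was 1.60 (1.30 to 1.97, FDR 0.00994). Itgam (CD11b), the alpha chain specific to complement receptor 3, read 29.7 and 33.5 CPM in female WT Tau and 36.8, 31.0 and 31.4 CPM in female KO Tau, against 28.4, 29.6 and 26.9 CPM in male WT Tau and 37.2, 20.6 and 24.1 CPM in male KO Tau. Its fold was 1.11 with an interval of 0.893 to 1.39 (FDR 0.444). The highest Itgam value of the series was in male KO Tau 711. Without that library the log2 fold change of Itgam was 0.32 (FDR 0.0213) and all 9 genes were called.

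**Figure D2:**
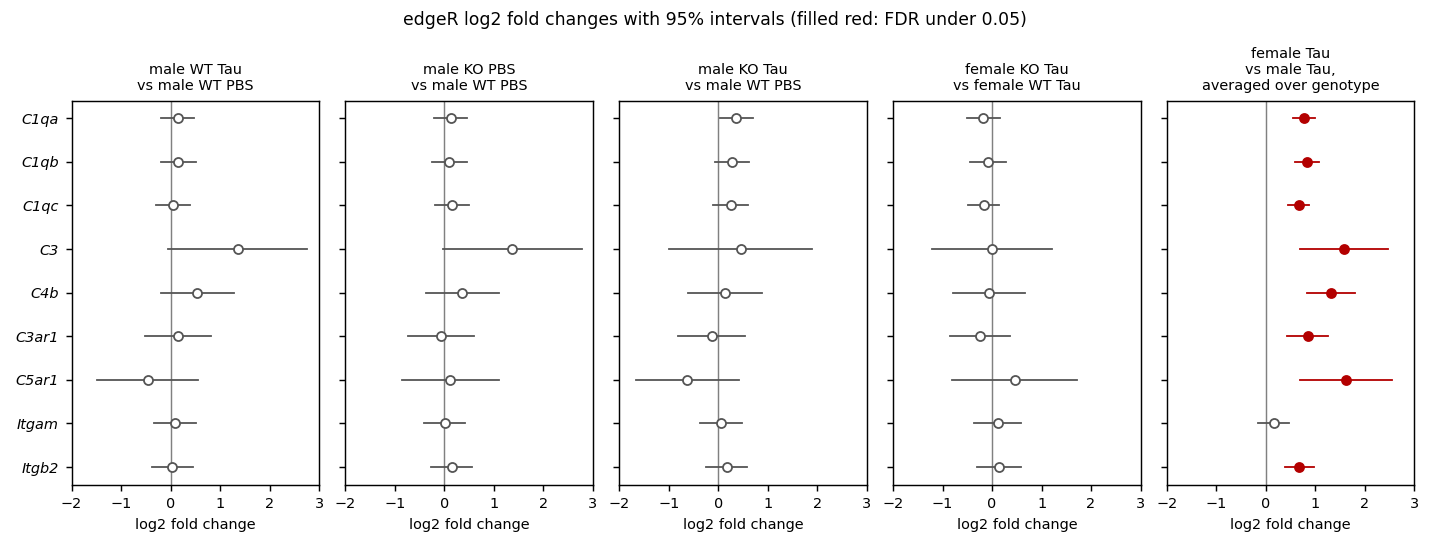
Log2 fold changes (horizontal axes) with 95% intervals from edgeR for the complement genes (rows) in 5 comparisons (panels); filled red points passed an FDR of 0.05. In the female against male panel 8 genes lie above 0 with their intervals, from 0.66 for C1qc to 1.62 for C5ar1, and in the other 4 panels no point is filled.

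In total 5 of the 9 genes, C1qa, C1qb, C1qc, C4b and Itgb2, did not overlap between female and male Tau libraries, where 6.76% of all genes tested were wholly higher in females. Taken within a genotype, a contrast added after the data were seen, the same direction was fitted for all 9 genes in both. In WT, C1qa (log2 fold change 0.97, FDR 0.0326), C1qb (0.93, FDR 0.0476) and C1qc (0.85, FDR 0.0459) were called, with 0.37% of genes called over the table. Each of these calls was lost without any 1 WT Tau library of either sex, without female KO Tau 324 or without male KO Tau 713, with an FDR of up to 0.260, 0.335 and 0.260. In KO, C1qa (0.57, FDR 0.0401), C1qb (0.73, FDR 0.0331) and C4b (1.48, FDR 0.0329) were called, with 6.33% called over the table. These too were lost without female KO Tau 324 or 325, without male KO Tau 712 or 713 and without any 1 male WT Tau library, and that of C1qa also without either female WT Tau library, with an FDR of up to 0.163, 0.150 and 0.151. The difference between these contrasts, the sex by genotype interaction, called 0 of the 9 genes and 0.0% of the table in edgeR, and no gene of the 9 had an unadjusted p under 0.05. Its smallest p among the 9 was for C1qa, at -0.39 (95% interval -0.83 to 0.05, unadjusted p = 0.0776, FDR 0.978).

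Some markers of microglia and of other cells moved with this contrast. Of 15 microglial markers, 7 were called higher in female Tau hippocampus, beside 11.4% of all genes. Among these 7 were Aif1, Gpr34, Fcrls, Ly86, Cd53 and Ctss, and none of the 15 was called lower. The sum of all 15 lay between 743 and 888 CPM in females and between 565 and 786 CPM in male Tau libraries, with 711 as the highest male. The markers did not all move alike. Among those not called, log2 fold changes were 0.01 for P2ry12 (95% interval -0.32 to 0.34), 0.09 for Tmem119 (-0.08 to 0.27), -0.03 for Cx3cr1 (-0.24 to 0.18) and 0.07 for Csf1r (-0.19 to 0.33). Ctss, a lysosomal protease of myeloid cells, was higher by 0.80 (0.51 to 1.09).

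Relative to the microglial markers of the same library, most of the complement genes kept a higher mean in females, though the ranges of most overlapped. Each gene's log2 CPM minus the mean log2 CPM of the 15 markers (2 counts added to each) was larger in females by 0.38 for C1qa, 0.45 for C1qb, 0.28 for C1qc, 1.16 for C3, 0.94 for C4b, 0.45 for C3ar1, 1.11 for C5ar1 and 0.33 for Itgb2. For Itgam the difference was -0.18. For C1qb the female range of 1.06 to 1.47 was above the male Tau range of 0.780 to 1.05, and for C4b the female range of 2.02 to 2.81 was above the male one of 0.853 to 1.96. The gap for C1qb was narrow. C1qa overlapped, since the lowest female library was at 0.998 and the highest male Tau library at 1.06. C1qc (lowest female 0.664, highest male Tau 0.766), C3, C3ar1, C5ar1, Itgam and Itgb2 overlapped too. The share of all genes that separate on this measure was not taken. These are descriptions without a test. With the mean log2 level of the markers as a covariate in the fit, 0 of the 9 genes and 14 of all genes were called. The log2 fold changes were then 0.48 for C1qa, 0.66 for C4b and -0.27 for Itgam, which need not stand for the other genes. Over all alternative fits together, the log2 fold change of C3 lay between 0.90 and 2.55 and that of C5ar1 between 0.92 and 3.34. The marker level itself was between 5.15 and 5.39 in females and between 4.69 and 5.20 in male Tau libraries, so that the covariate and sex were nearly the same split.

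**Figure D3:**
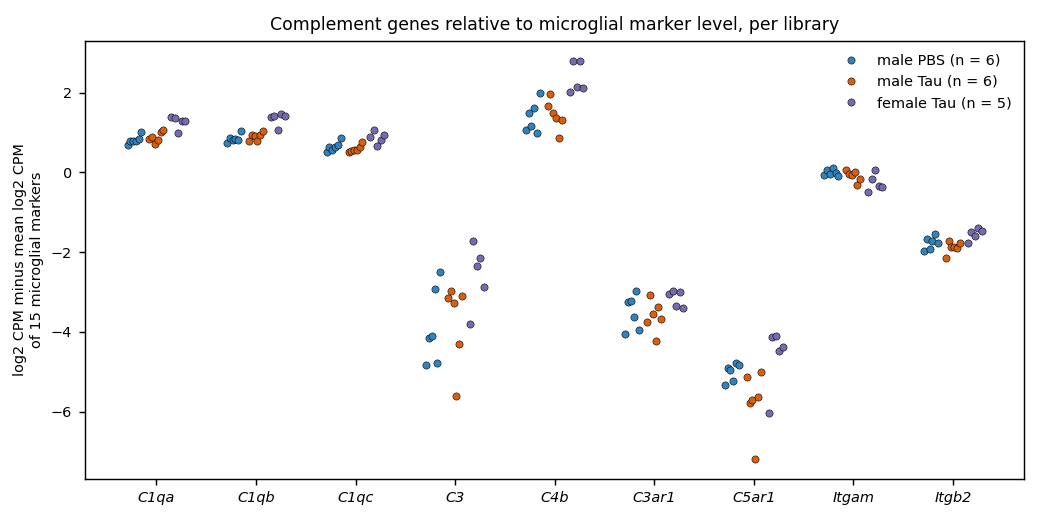
Log2 CPM of each complement gene minus the mean log2 CPM of 15 microglial markers in the same library (vertical axis), for male PBS, male Tau and female Tau libraries. For C4b the female points (2.02 to 2.81) lie above the male Tau points (0.853 to 1.96), whereas for Itgam the female points reach down to -0.495, below every male Tau point.

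Markers of several other cell types were also called higher in the female libraries, beside 11.4% of all genes called higher. Perivascular macrophage markers summed to between 10.9 and 23.8 CPM in females and between 4.92 and 11.8 CPM in male Tau libraries, with 5 of 6 markers called (Mrc1, Cd163, F13a1, Pf4 and Ms4a7). The 3 tested of 5 neutrophil and monocyte markers (S100a8, S100a9 and Ccr2) were all called, and the list summed to between 3.18 and 44.9 CPM in females and between 0.689 and 1.61 CPM in male Tau libraries. In astrocytes 3 of 6 (Aldh1l1, Aqp4 and Gjb6) and in endothelium 4 of 5 (Flt1, Pecam1, Ly6c1 and Slco1a4) were called higher. Of 6 oligodendrocyte markers Mobp and of 6 fibroblast and meningeal markers Lum was called higher, 1 in each list and near the share over all genes. Of 4 CA1 markers Wfs1 was lower. None of the 5 dentate granule, 3 CA2, 3 CA3 or 10 choroid plexus markers was called. The part of these cell types in the complement result was not tested.

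The C1qc chain differed in its proportion to C1qb between the groups. C1q protein is assembled from all of them in equal number. The ratios given here are of RNA read counts and are not corrected for length. Merged exons held 1931 bases in C1qc, 1088 in C1qb and 1040 in C1qa. Per length, C1qc to C1qb lay between 0.355 (female KO Tau 324) and 0.514 (male KO PBS 752). The ratio of C1qa to C1qb counts lay between 0.869 and 1.05 in all male libraries and between 0.886 and 0.994 in the female ones. The ratio of C1qc to C1qb read 0.843, 0.858 and 0.843 in male WT PBS and 0.864, 0.913 and 0.882 in male KO PBS. It read 0.824, 0.759 and 0.785 in male WT Tau and 0.857, 0.809 and 0.822 in male KO Tau. Within each genotype every male Tau library was below every male PBS library. The share of other gene pairs whose ratio separates in this way was not taken. In females it was lower again, with 0.703 and 0.782 in WT Tau and 0.759, 0.631 and 0.721 in KO Tau.

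The ratio tests were chosen after the ratios had been seen, and 6 were made in all. Ratios of other gene pairs were not tested, so the p-values do not show that the C1q ratios stand out among gene ratios. For C1qc to C1qb, male Tau (0.809 ± 0.0340, SD, n = 6) was lower than male PBS (0.867 ± 0.0268, n = 6) by a two-sided exact permutation test on the log2 ratio (p = 0.00649, adjusted over the 6 tests 0.0260), and p stayed between 0.00433 and 0.0130 when each library was left out. Female Tau (0.719 ± 0.0583, n = 5) was lower than male Tau (exact permutation p = 0.0130, adjusted 0.0260), with p between 0.00794 and 0.0286 when each library was left out. For C1qc to C1qa, male Tau (0.818 ± 0.0480) was lower than male PBS (0.891 ± 0.0220) with p = 0.0130 in the exact permutation test (adjusted 0.0260), and female against male Tau gave an exact permutation p of 0.108 (adjusted 0.162). The C1qa to C1qb ratio gave exact permutation p-values of 0.639 for male Tau against male PBS and 0.216 for female against male Tau (adjusted 0.639 and 0.260). Without male WT Tau 773 these exact permutation p-values were 0.0433 and 0.0159, and without each other library they were above 0.05. Because a ratio of counts within a library does not depend on its scaling, the difference between chains was unaffected by the choice of normalisation.

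**Figure D4:**
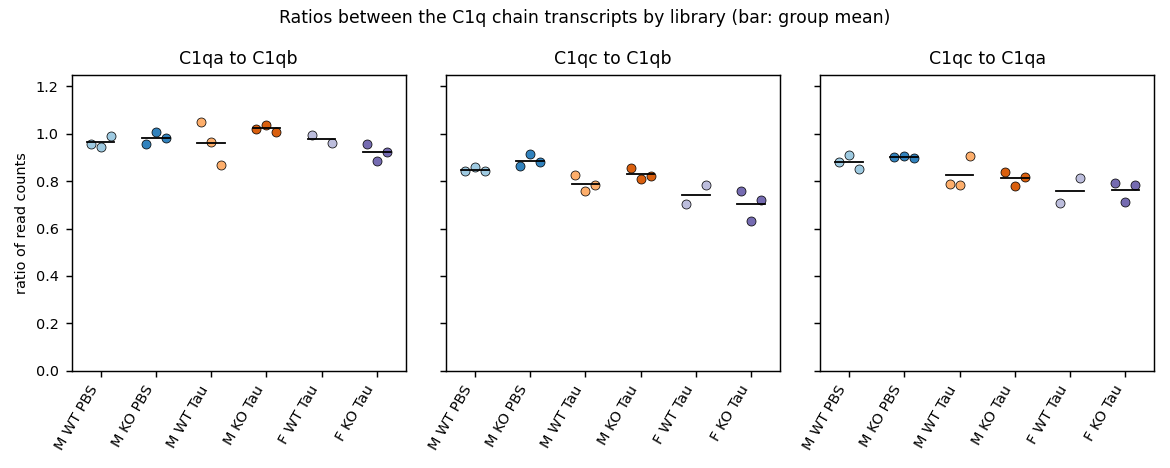
Ratio of read counts, not corrected for length, between pairs of C1q chains (vertical axis, starting at 0) in each library, by group. Bars are group means. The C1qc to C1qb ratio lies between 0.843 and 0.913 in male PBS libraries, between 0.759 and 0.857 in male Tau and between 0.631 and 0.782 in female Tau libraries.

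In males the question was whether AD-tau, loss of Acss2 or their combination altered complement RNA. None of the 9 genes was called in any male comparison by edgeR, nor by DESeq2 or limma-voom on all libraries of the fit. This was so for WT Tau against WT PBS (0.0% of 15098 genes called), KO PBS against WT PBS (0.00662%), KO Tau against WT PBS (0.00662%), KO Tau against WT Tau (0.00662%), KO Tau against KO PBS (0.0%), the genotype by treatment interaction (0.0%), Tau against PBS averaged over genotype (0.0%) and KO against WT averaged over treatment (0.00662%). The single gene called over the table in some of these was Acss2. At an unadjusted p under 0.05 there was 1 complement gene in KO Tau against WT PBS, C1qa (6.33% of all genes), and 1 in the interaction, C3 (4.18% of all genes), and 0 in the other male comparisons.

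C3 had the largest fitted changes of the 9 genes in WT Tau against WT PBS, in KO PBS against WT PBS and in the interaction, with a wide spread between libraries. It had 15, 28 and 23 counts in male WT PBS (0.822, 1.45 and 1.37 CPM) and 49, 68 and 57 counts in male WT Tau (2.92, 3.73 and 2.80 CPM). Every WT Tau library was above every WT PBS one, with a log2 fold change of 1.35 (SE 0.64, 95% interval -0.06 to 2.76, FDR 1.00). In male KO PBS it read 3.20, 0.665 and 5.17 CPM and in male KO Tau 0.631, 1.20 and 3.06 CPM, so that the highest and lowest libraries of these groups were 7.78-fold and 4.85-fold apart. KO PBS against WT PBS gave 1.37 (SE 0.64), KO Tau against WT PBS 0.45 (SE 0.66; -0.38 without KO Tau 713), and the interaction -2.27 (SE 0.89, unadjusted p = 0.0271, FDR 0.996). Leaving out 1 library, by edgeR or DESeq2, put the interaction of C3 between -3.12 and -1.66. With DESeq2 on the groups compared alone, C3 was called in WT Tau against WT PBS when WT PBS 792 was left out (1.53, adjusted p = 0.0483), and in KO PBS against WT PBS (1.83, adjusted p = 0.00295) and the interaction (-2.74, adjusted p = 0.0322) when KO PBS 752 was left out.

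C4b showed the same order of groups on a smaller scale. It read 55.1, 78.2 and 57.7 CPM in male WT PBS and 85.3, 118 and 78.5 CPM in male WT Tau, again without overlap, where the lowest WT Tau library exceeded the highest WT PBS library only narrowly. The log2 fold change was 0.54 (SE 0.34, 95% interval -0.20 to 1.28, FDR 1.00). DESeq2 on these groups called it without WT PBS 792 (0.74, adjusted p = 0.000262). In male KO PBS it read 76.3, 43.4 and 118 CPM and in male KO Tau 94.9, 46.5 and 67.9 CPM, and the interaction was -0.77 (95% interval -1.81 to 0.28, FDR 0.996). For KO Tau against WT Tau, DESeq2 on these groups called C4b as lower without KO Tau 711 (-0.70, adjusted p = 0.00926), whereas the value with that library was -0.40 (SE 0.34, FDR 0.927). C3 and C4b were the 2 genes of the 9 that did not overlap between WT Tau and WT PBS, beside 6.84% of all genes tested that were wholly higher in WT Tau.

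No C1q chain passed the test in any male comparison. C1qa read 42.2, 47.7 and 44.7 CPM in male WT PBS and 42.6, 38.5 and 60.5 CPM in male KO PBS, and with the Tau values given above it was highest in KO Tau. KO Tau against WT PBS was the only male comparison in which it did not overlap (6.29% of all genes were wholly higher there), with a log2 fold change of 0.36 (95% interval 0.03 to 0.70, unadjusted p = 0.0356, FDR 0.783). C1qb read 44.1, 50.6 and 45.1 CPM in WT PBS and 44.5, 38.1 and 61.5 CPM in KO PBS. C1qc read 37.2, 43.4 and 38.0 CPM in WT PBS and 38.4, 34.8 and 54.3 CPM in KO PBS. For Tau against PBS averaged over genotype the intervals were -0.04 to 0.43 for C1qa, -0.08 to 0.42 for C1qb and -0.18 to 0.32 for C1qc, so that the upper bound of a common male tau effect was at most 1.35-fold for each of them.

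Within KO PBS most of the 9 genes had the same order at both ends. Library 753 had the highest and 752 the lowest values of C1qa, C1qb, C1qc, C3, C4b, Itgam and Itgb2. For Itgb2 the lower end was narrow, with 7.38 CPM in 752 and 7.41 CPM in 751. C3ar1 was highest in 752 and lowest in 753. The share of all genes with the order of the C1q chains was not taken. Library 752 also stood apart in neuronal markers, with dentate granule markers summing to 16.6 CPM against 144 and 417 CPM in the other two and CA1 markers to 349 CPM against 785 and 797 CPM, and the microglial markers summed to 659 CPM in 753 and 463 CPM in 752. Over all 17 libraries, deviations from the group means correlated at r = 0.957 between C1qa and C1qb, 0.946 between C1qb and C1qc and 0.927 between C1qa and C1qc, and at 0.749 to 0.780 between C4b and these chains. C3 with C5ar1 had r = 0.698 and C3 with C4b 0.594, whereas C3ar1 with C4b had 0.0154. These correlations share library depth and tissue composition and are descriptions.

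For Tau against PBS averaged over genotype in males, fitted log2 fold changes were small for Itgam (0.07), Itgb2 (0.03) and C3ar1 (0.03). That of C5ar1, given below, was larger and poorly resolved. Itgam read 25.2, 28.8 and 24.9 CPM in WT PBS and 27.0, 21.3 and 28.0 CPM in KO PBS. Itgb2 read 6.63, 8.63 and 6.68 CPM in WT PBS and 7.41, 7.38 and 8.70 CPM in KO PBS. Their averaged Tau against PBS intervals were -0.23 to 0.37 for Itgam and -0.27 to 0.32 for Itgb2. C3ar1 read 1.48, 2.79 and 2.63 CPM in WT PBS and 1.93, 2.66 and 1.83 CPM in KO PBS. C5ar1 had 10, 16 and 12 counts in WT PBS and 11, 11 and 21 in KO PBS. The fitted Tau against PBS change of C5ar1 was -0.61 (95% interval -1.33 to 0.12, FDR 0.888), and with between 2 and 21 counts a library its interval allowed both no change and a fall to 0.398-fold.

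Choroid plexus RNA differed within these male groups. Its 10 markers summed to between 47.0 and 73.5 CPM in WT PBS, 52.7 and 586 in WT Tau, 25.5 and 182 in KO PBS, and 59.7 and 4062 in KO Tau. The choroid plexus score as a covariate left 0 of the 9 genes called in each male comparison. The microglial markers had 0 of 15 called in each male comparison.

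In females the comparison of KO Tau with WT Tau asked whether Acss2 loss altered complement RNA in Tau-injected hippocampus. The edgeR fit called 0 of the 9 genes, none of which had an unadjusted p under 0.05, and 0.00649% of 15419 genes. C1qc alone did not overlap, with all KO Tau libraries lower, beside 10.3% of all genes that were wholly lower. Its log2 fold change was -0.17 (95% interval -0.49 to 0.14, FDR 0.997). C3 stood at 0.00 (-1.21 to 1.21), a value that was 1.36 without female WT Tau 341, and C4b at -0.06 (-0.79 to 0.66). With 2 WT libraries, this comparison bounds the C1q chains fairly closely and C3 and C5ar1 hardly at all.

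Beyond these 9 genes, 54 further genes of the complement system were drawn up by pathway. In female against male Tau hippocampus 38 of them passed the low-count filter, 4 were higher and 4 lower, with a median log2 fold change of -0.05. Of all genes tested 11.4% were called higher and 12.4% lower, and the wider list was near these shares. None of the tested genes was called in the male comparisons or between the female genotypes. The initiating proteases and C2 of the C1 list were not called (0 of 4 tested), with C1s1 at 0.87 (SE 0.36, FDR 0.101), C2 at 0.42 (SE 0.37, FDR 0.411) and C1ra at -0.49 (SE 0.35, FDR 0.306). C4a, the near copy of C4b, was at -0.24 (SE 0.22, FDR 0.438) and ranged from 1.22 to 2.18 CPM in females. In the lectin pathway Fcna, which encodes a ficolin made by macrophages, was higher by 1.97 (SE 0.52, FDR 0.0227), from between 0.0596 and 0.378 CPM in male Tau to between 0.273 and 1.37 CPM in female libraries, 1 of 5 tested. Masp1, a lectin pathway protease, was at -0.43 (FDR 0.103), and the collectins Colec12 at 0.38 (FDR 0.273) and Colec11 at -0.63 (FDR 0.133).

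In the alternative and terminal pathways no gene was called. Cfb, the protease of the alternative convertase, had 0.31 (SE 0.12, FDR 0.0887), and its female range of 5.33 to 6.90 CPM lay just above the male Tau range of 4.01 to 5.30 CPM. Cfp (properdin), which stabilises that convertase, had 0.31 (SE 0.19, FDR 0.246). Of 7 terminal pathway genes 2 passed the filter, C7 at -0.35 (FDR 0.768) and C8g at -0.12 (FDR 0.711). Soluble regulators had 0 of 4 called. Clu (clusterin), the most abundant of all complement genes examined here, was at 0.36 (SE 0.14, FDR 0.0750), with 1219 to 1668 CPM in females and 920 to 1439 CPM in male Tau libraries. Serping1, the C1 inhibitor, was at 0.42 (FDR 0.334) and Vtn (vitronectin) at 0.09 (FDR 0.701).

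Of 12 membrane regulators tested, 2 were called higher and 4 lower, beside 11.4% and 12.4% of all genes. Cd59a, which blocks the membrane attack complex, was higher by 1.04 (SE 0.28, FDR 0.0258) and Cd46 by 0.97 (SE 0.28, FDR 0.0313). The 4 lower genes are known mainly from neurons. Sez6 fell by 0.80 (SE 0.21, FDR 0.0219), Sez6l by 0.42 (FDR 0.0465), Sez6l2 by 0.45 (FDR 0.0488) and Susd4 by 0.30 (FDR 0.0430). Sez6 ranged from 81.7 to 173 CPM in females and from 174 to 251 CPM in male Tau libraries. Among other receptors and integrins, Itgax (CD11c), the alpha chain of complement receptor 4 and a partner of Itgb2, was higher by 1.58 (SE 0.33, FDR 0.0108). Its female range was 1.55 to 2.67 CPM and its male Tau range 0.417 to 1.15 CPM, and the sexes did not overlap. Calr, Lrp1 and C1qbp, the most expressed of this list per length, had -0.16, -0.23 and -0.12 and were not called.

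**Figure D5:**
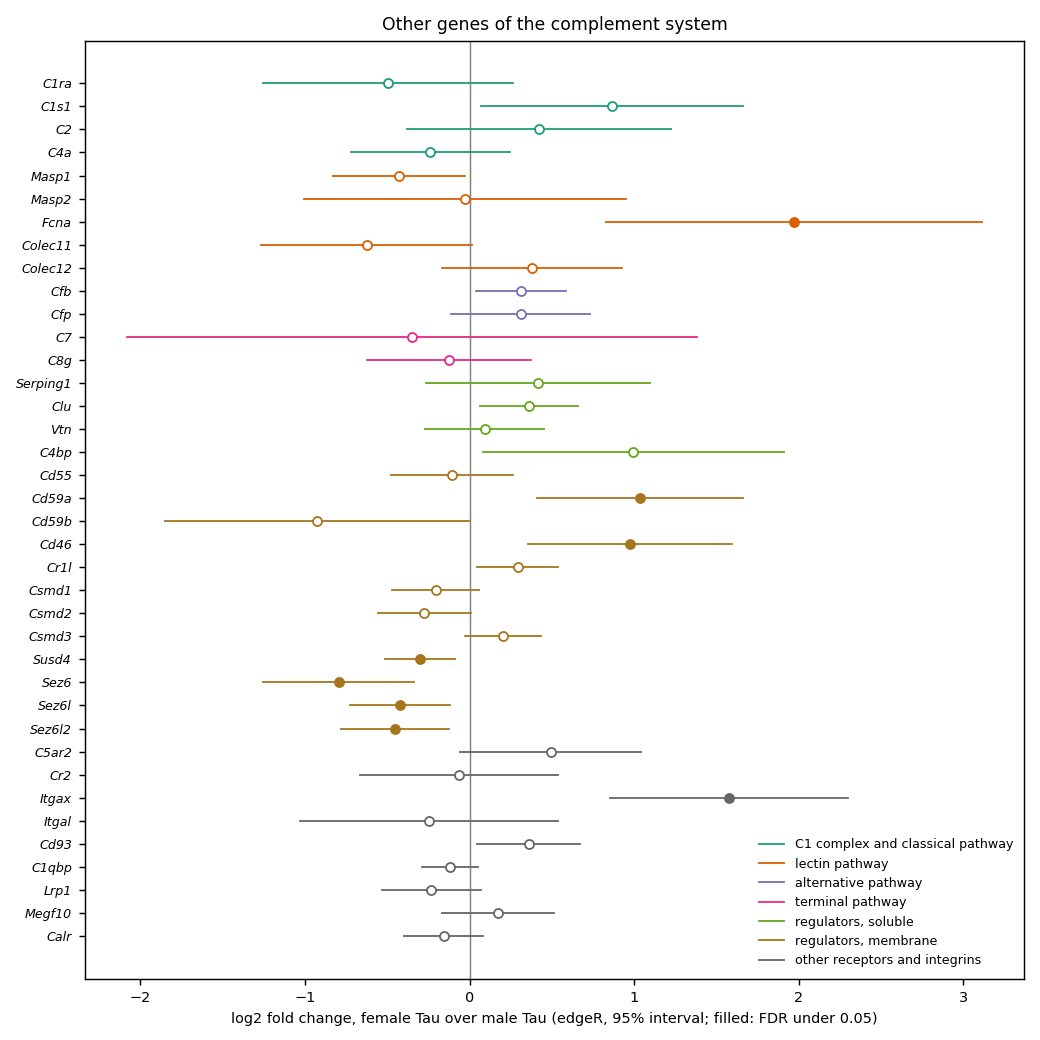
Log2 fold change of female over male Tau libraries (horizontal axis) with 95% intervals from edgeR for the 38 tested genes of the wider complement lists (rows), coloured by list; filled points passed an FDR of 0.05. Fcna (1.97), Itgax (1.58), Cd59a (1.04) and Cd46 (0.97) are filled above 0, and Sez6 (-0.80), Sez6l2 (-0.45), Sez6l (-0.42) and Susd4 (-0.30) below it.

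Among 15594 expressed genes, the ones whose deviations from group means over the 17 libraries were most like those of the complement genes were named by Pearson's r. For the mean of the C1q chains these were Pdlim4 (0.966), Plod1, Ehd2, Bag3 and Nod1. For C4b they were Cdh24 (0.962), Hk3, Bok, Gpc1 and Ralgds, and for C3 Bop1 (0.922), Glb1l2, Dkk3, Chpf and Chgb. For Itgb2 they were the microglial marker Fcrls (0.897), Hist1h4h, Rhoh, Vsir and Serhl, and for Itgam Psd (0.964), Dok6, Dubr, Plcl1 and Papss2. For C3ar1 they were Bmx (0.807), Cacna2d4, Adamts12, Lrrc18 and Naaladl1, and for C5ar1 Zc3h18 (0.926), Golga2, Pcdhgb1, Cfap206 and Alas1. The points of each correlation are libraries of the same tissue pieces and share their composition.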

How the data were processed

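Total poly(A) RNA of dorsal hippocampal slices was sequenced by the authors. Per the labels, animals were perfused with PBS and then paraformaldehyde before dissection. The study's methods give this perfusion under histology and do not mention it for the RNA samples. The authors aligned reads to GRCm38 (mm10) with STAR 2.5.2 and counted them per gene, by exon and with strand, with HTSeq 0.9.1, and the deposited table holds these raw read counts, unnormalised. Versions are those of the submitters' processing notes.

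Groups came from the labels. Counts were tested with edgeR 4.0.16 (R 4.3.3; TMM factors, filterByExpr with a minimum count of 10 and a minimum total of 15, quasi-likelihood F-test, Benjamini-Hochberg FDR 0.05 over all genes tested) in a fit of the 12 male libraries and a fit of the 11 Tau libraries. DESeq2 1.42.0, limma 3.58.1 (voom with quality weights), other factors, filters and library sets, marker scores as covariates and leaving out each library were alternatives. The test was checked on simulated counts. CPM use library totals, marker scores are means of log2 CPM with a prior count of 2, and lengths are merged exons of GENCODE M21, which held 96.4% of the symbols by name. Intervals are 95%.

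The 9 genes, the wider lists and the cell type lists were chosen with earlier results of these data known. Each of the 9 genes is given in every library. Genes of the lists are named where they passed the FDR, were among the 3 of a list with the highest level per length or took part in a count of 5 or fewer, and others named with values were chosen after their values were seen.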

Additional observations from a re-analysis of the deposited data

How the results depend on the processing

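No paired analysis was possible because the groups share no replicate numbers: each library number occurs once in the series.

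The count of complement genes called was 0 under every alternative that kept all libraries in the 10 comparisons other than female against male Tau. In that comparison it was 8, and 0 with the microglia score as a covariate. Leaving out 1 library gave 6 to 9 there, 0 to 2 for male WT Tau against WT PBS, 0 to 1 for KO PBS against WT PBS, 0 to 1 for KO Tau against WT Tau, 0 to 1 for the male interaction, and 0 in the others. Of 261 alternative fits of single genes for female against male Tau, 243 kept direction and side of the threshold, 15 lost the call, 2 gained it (Itgam) and 1 turned direction.

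Values that turned direction were all uncalled. With the microglia score as a covariate these were C4b (-0.29) and Itgam (-0.20) in KO Tau against WT PBS, C1qc (-0.077) and Itgam (-0.21) in KO Tau against KO PBS, C1qc (-0.063), C4b (-0.13) and Itgam (-0.12) in male Tau against PBS, and Itgam in female against male Tau (-0.27), within WT (-0.42) and within KO (-0.13). With the choroid plexus score they were C3 (-0.72) and C4b (-0.29) in KO Tau against WT PBS, C3 (-0.41) and C4b (-0.098) in male Tau against PBS, and C3 (-0.31) in male KO against WT. With voom weights Itgam was -0.14 in KO Tau against WT PBS and -0.20 in KO Tau against KO PBS. With 1 library left out of the edgeR fit, and in brackets the turned value of DESeq2 on the groups compared, the ranges crossed 0 without KO PBS 753 for C1qa from -0.080 to 0.25 (-0.074), C1qb from -0.11 to 0.23 (-0.10), C1qc from -0.044 to 0.28 (-0.038) and C4b from -0.022 to 0.65 (-0.018) in KO PBS against WT PBS and C4b from -0.52 to 0.16 (0.15) in KO Tau against KO PBS. They did so without KO Tau 713 for C3 in KO Tau against WT PBS from -0.38 to 0.81 (-0.39), and without KO Tau 711 for Itgam in KO Tau against WT PBS from -0.23 to 0.24 (-0.23), in KO Tau against KO PBS from -0.24 to 0.23 (-0.24) and in male Tau against PBS from -0.075 to 0.16 (-0.074). In female KO against WT Tau this held without WT Tau 341 for C3 from -0.68 to 1.36 (1.38) and C4b from -0.37 to 0.32 (0.34), and without WT Tau 331 for C5ar1 from -0.21 to 1.84 (-0.20). In female against male WT Tau it held without WT Tau 341 for C3 from -0.23 to 1.81 and C5ar1 from -0.078 to 1.97. The causes were not tested. An uncalled value that crossed 0 but moved by less than the SE of the reported value was not counted as turned.

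Within WT, the female against male calls of C1qa, C1qb and C1qc each held in 9 of 18 alternatives, and within KO those of C1qa, C1qb and C4b in 7, 9 and 9 of 18.

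Over the whole table the count of calls ranged from 14 (microglia score) to 6300 against 3674 for female against male Tau, up to 1029 for KO Tau against WT PBS and 1378 for KO Tau against WT Tau (DESeq2 on those groups without KO Tau 711), 275 for WT Tau against WT PBS, 221 for KO PBS against WT PBS, 184 for the sex by genotype interaction, 84 for male KO against WT, 76 for the male interaction, 39 for female KO against WT Tau, 37 for KO Tau against KO PBS and 26 for male Tau against PBS, where edgeR called 0 or 1. The study, with 2 KO Tau libraries in its bulk RNA-seq, reported the same 1029 and 1378 genes for KO Tau against WT PBS and against WT Tau. Depth limits C5ar1 and C3, with as few as 2 and 10 counts a library, and 2 female WT libraries limit every comparison that uses them.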
